A study of Homo sapiens with 22 samples.

Results

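The data describe 4 of the 22 RNA-seq libraries of the series, namely the pair labelled KO2_Rescue and the pair labelled KO2, chosen by their labels and not by any measured value. All 22 come from RPTEC, human renal proximal tubule epithelial cells immortalized with hTERT, of which KO lines carry a CRISPR disruption of SETD2. KO2 was sequenced in duplicate as an untreated SETD2 knockout clone in medium with 2% FBS. KO2_Rescue was sequenced in duplicate with the same 2% FBS label and a rescue label, whereas the growth text shared by the samples places rescue cells in regular medium with 10% FBS, so the serum of these 2 libraries is taken from their own label. Other groups are used only where they place a value, each in duplicate: WT and KO1, both in 2% FBS; WT_TGFb, WT cells in 2% FBS given TGF-β at 10 ng/mL for 72 h; WT_eGFP, WT_OCT2, WT_PRRX1 and WT_SOX2, lentivirally transduced WT lines in 10% FBS; and Rescue1 and Rescue2, SETD2 rescue lines in 10% FBS. Per the methods of the study, knockout lines were single clones, and rescue lines were single colonies picked after lentiviral transduction of knockout cells with full-length FLAG-tagged SETD2 and blasticidin selection, so that clone and construct cannot be told apart with 1 line. Nothing in the labels says that the members of a duplicate were separate cultures. The p-values therefore measure only the spread between duplicate libraries, estimated over all 22 libraries unless stated otherwise.

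SETD2 is the methyltransferase that places the third methyl group on lysine K36 of histone H3 along transcribed gene bodies. Its loss is common in clear cell renal cell carcinoma, a tumor of the proximal tubule, and the mark it makes is linked to splicing, DNA repair and the silencing of start sites inside genes. The knockout guide is shown because it defines what both compared groups carry, with its PAM, the bases Cas9 requires beside the target, in capitals.

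SETD2 guide: tagaatatgatgaccctcgtCGG

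On the plus strand this sequence occurred once in the 25 chromosomes of hg38 searched, at chr3:47122997-47123019, within coding sequence of exon 3 (chr3:47120182-47124548) of SETD2, which lies on the minus strand. An edit there need not lower the transcript.

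The first question was whether the libraries labelled KO2 rescue carried the transcript they were named for. Values are normalized counts, that is reads scaled to a common library size. SETD2 stood at 1050 and 1052 in KO2 and at 834 and 820 in KO2_Rescue. Both labelled rescue libraries lay below both KO2 libraries, by 0.345 ± 0.068 on the log2 scale (SE; limma adjusted p = 0.00382), which is 78.7% of KO2, although the adjusted p was 0.0532 when only these 4 libraries entered the fit. WT held 1852 and 2061, so that KO2 was at 53.7% and KO2_Rescue at 42.3% of WT. Rescue1 held 10240 and 10369 and Rescue2 10445 and 9764, which were 12.5-fold and 12.2-fold above KO2_Rescue, and the differences of KO2_Rescue from them were -3.64 and -3.61 (adjusted p = 1.10e-13 and 1.23e-13). The SETD2 level therefore goes against the rescue label, and every direction below is that of "the libraries labelled KO2 rescue" against KO2, not of restored SETD2. The gene-level value sums endogenous and vector transcript, and neither SETD2 protein nor histone methylation was measured in these data.

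**Figure D1:**
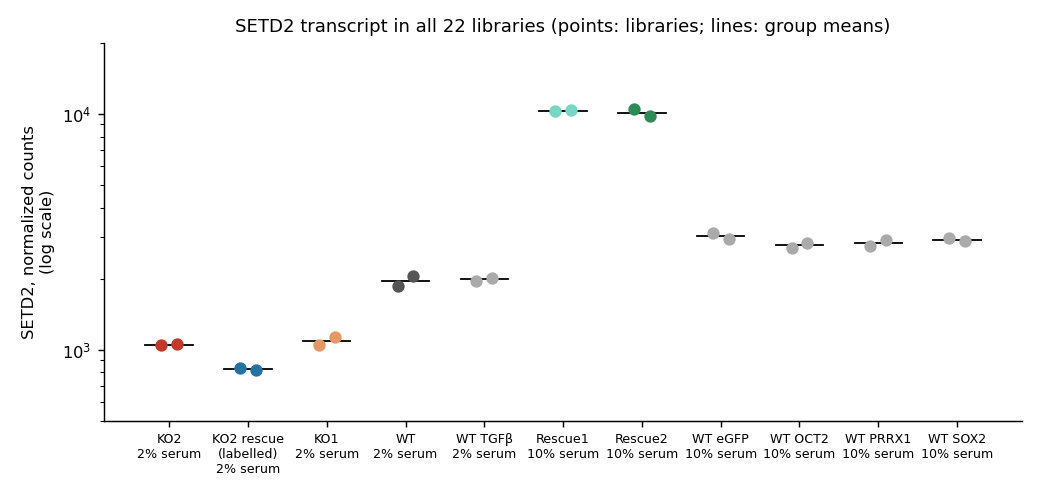
SETD2 normalized counts (log axis) in each library of every group. The libraries labelled KO2 rescue (834 and 820) sit below KO2 (1050 and 1052), whereas Rescue1 and Rescue2 lie between 9764 and 10445.

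The next question was which genes separated the 2 groups. A gene was called when the limma adjusted p was under 0.05 and the log2 difference beyond 1. Of 14585 genes tested, 608 (4.17%) were called, of which 241 (1.65%) were higher and 367 (2.52%) lower in the labelled rescue libraries. The median log2 difference over all genes tested was 0. The falls were larger than the rises, with a median of -2.05 over the genes called lower and of 1.45 over those called higher. Beyond a log2 difference of 3 there were 106 falls and 37 rises. Of the genes called lower, 344 were protein coding and 55 were at or under 3 normalized counts in both labelled rescue libraries, the floor used here. In all 608 called genes the duplicates of the groups did not overlap. With 2 libraries a group, genes that were not called can also lack overlap. The share over all genes tested is not given here, so this adds no support to the calls. Of the genes called higher, 211 were protein coding and 22 were at the floor in KO2. Leaving out KO2 replicate 1 left 240 genes lower, and leaving out KO2_Rescue replicate 2 left 148 higher. Library totals were 13992475 to 14848117 normalized counts in the 4 libraries, with 15976 to 16115 genes above 0. Duplicates of a group differed by a median of 0.156 in KO2 and 0.138 in KO2_Rescue on the log2 scale, over 8276 genes.

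**Figure D2:**
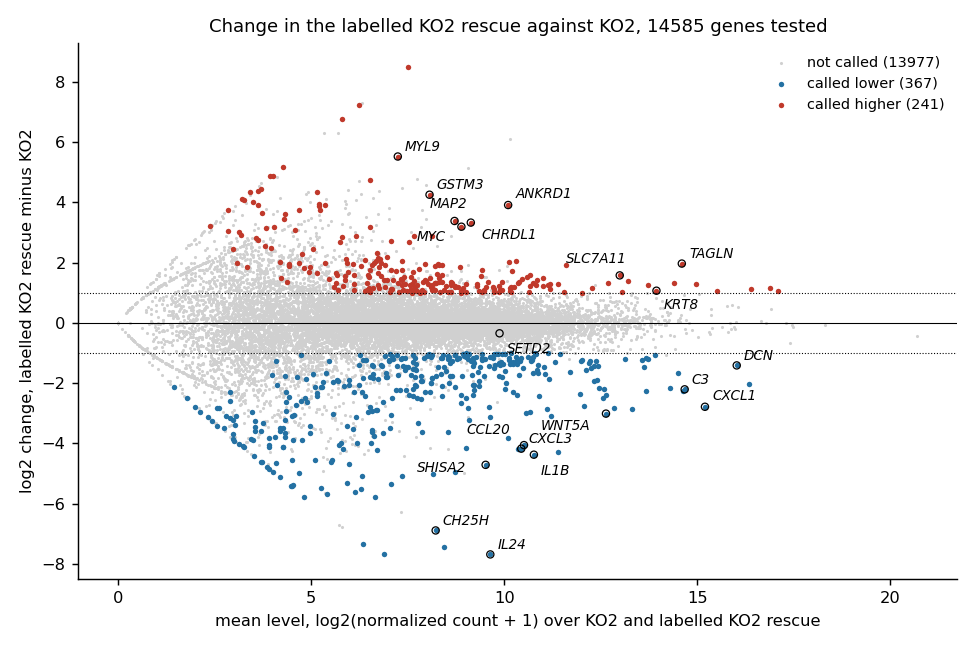
Mean level of each tested gene over the 4 libraries (log2 of normalized counts plus 1, x axis) against its log2 difference, KO2_Rescue minus KO2 (y axis), with called genes colored. The 367 falls extend to -7.68 (IL24), and the median of the 241 rises is 1.45.

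Inflammatory genes had the largest share of falls among the gene lists examined. Cytokines, chemokines and acute-phase proteins are largely silent in resting epithelium and are switched on by NF-kappaB, a family of transcription factors held in the cytoplasm by IκB proteins until a signal releases them. Of the 41 genes listed, 37 were in the data, 33 were tested, and 18 were called lower (54.5%, against 2.52% of all genes tested), with none called higher and a median log2 difference of -1.93 against 0 over all genes. The other alternatives on the same scale gave 15 to 19 called lower, and leaving out 1 library gave 15 to 17.

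For 5 of these genes the promoter is shown, because it holds in capitals a match to the NF-kappaB motif. Each runs 5′ to 3′ on the strand of the gene from 250 bases before to 50 bases after the start (RefSeq, GRCh38.p14).

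LCN2: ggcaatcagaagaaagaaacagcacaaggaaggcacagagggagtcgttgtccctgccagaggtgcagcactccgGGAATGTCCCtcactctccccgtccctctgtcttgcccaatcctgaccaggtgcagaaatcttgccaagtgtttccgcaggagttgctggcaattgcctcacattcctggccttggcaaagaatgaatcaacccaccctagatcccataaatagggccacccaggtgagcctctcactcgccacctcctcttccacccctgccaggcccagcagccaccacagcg
CXCL3: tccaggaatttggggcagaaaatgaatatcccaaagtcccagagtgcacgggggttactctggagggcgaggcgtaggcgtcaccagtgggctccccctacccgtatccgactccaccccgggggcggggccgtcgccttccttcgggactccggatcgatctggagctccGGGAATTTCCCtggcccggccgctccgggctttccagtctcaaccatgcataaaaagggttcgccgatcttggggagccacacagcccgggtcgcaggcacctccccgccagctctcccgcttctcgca
CCL20: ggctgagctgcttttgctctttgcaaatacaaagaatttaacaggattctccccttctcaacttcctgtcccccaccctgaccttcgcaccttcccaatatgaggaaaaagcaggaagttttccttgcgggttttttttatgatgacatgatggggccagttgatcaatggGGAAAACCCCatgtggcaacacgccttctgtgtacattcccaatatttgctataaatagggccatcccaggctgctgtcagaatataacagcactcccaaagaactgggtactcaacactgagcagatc
CXCL1: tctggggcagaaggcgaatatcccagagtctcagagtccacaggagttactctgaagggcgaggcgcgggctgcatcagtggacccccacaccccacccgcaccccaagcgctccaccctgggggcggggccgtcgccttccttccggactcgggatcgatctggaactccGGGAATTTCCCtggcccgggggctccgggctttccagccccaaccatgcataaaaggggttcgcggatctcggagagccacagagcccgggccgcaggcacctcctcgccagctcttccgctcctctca
CXCL6: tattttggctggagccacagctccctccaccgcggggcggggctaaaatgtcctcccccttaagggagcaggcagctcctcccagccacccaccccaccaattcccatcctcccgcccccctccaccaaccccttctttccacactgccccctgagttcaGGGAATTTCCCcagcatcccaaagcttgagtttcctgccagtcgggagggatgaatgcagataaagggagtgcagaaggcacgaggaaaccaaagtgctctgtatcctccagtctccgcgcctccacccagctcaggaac

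These are chr9:128149203-128149502 on the plus strand for LCN2, chr4:74038640-74038939 on the minus strand for CXCL3, chr2:227813592-227813891 on the plus strand for CCL20, and chr4:73869143-73869442 and chr4:73836428-73836727 on the plus strand for CXCL1 and CXCL6. The match began 79 bases before the start in CXCL3, CCL20 and CXCL1, 90 bases before it in CXCL6 and 175 bases before it in LCN2. In CXCL3, CXCL1 and CXCL6 the capitals cover 2 overlapping matches, 1 per strand. Of the 18 genes called lower, 13 had a promoter in the table and 7 of these held the motif (53.8%), namely CCL20, CXCL1, CXCL2, CXCL3, CXCL6, IL6 and LCN2. Of those tested and not called, 1 of 8 did (IL32). The motif, searched on both strands, was in 2075 of 35116 promoters (5.91%) and in 673 of the 10430 promoters of genes tested (6.45%). CXCL1, CXCL2 and CXCL3 are close paralogs with similar promoters, so that their matches are not independent, and a match is not a bound site. The list is of genes of the kind NF-kappaB switches on, so this share was partly set by the choice of list. The part of NF-kappaB was not tested. A second motif, the CArG box, was searched in the contractile list described below. It was in 0 of 2 promoters of genes called higher, 0 of 1 lower and 0 of 11 not called (1.19% of genes tested).

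Chemokines, which draw neutrophils and lymphocytes to a tissue, fell over a wide range of levels. CXCL3 held 3024 and 2239 normalized counts in KO2 and 145 and 142 in the labelled rescue libraries. The duplicates did not overlap, and the difference was 18.4-fold (log2 -4.17 ± 0.19, adjusted p = 1.68e-09). CCL20, the ligand of CCR6, stood at 2757 and 2742 against 154 and 176, which is 16.7-fold lower (log2 -4.06 ± 0.22, adjusted p = 1.98e-08). WT held a mean of 9.02 normalized counts of CCL20, so that the labelled rescue libraries remained above WT. CXCL1, a neutrophil attractant, was at 73071 and 58364 against 9621 and 9349, a 6.93-fold difference (adjusted p = 7.83e-10). CXCL6 was 6.19-fold, CXCL8 4.30-fold, CXCL2 3.87-fold and CCL2 3.82-fold lower, all with duplicates that did not overlap, and of these CXCL6 was not called without KO2_Rescue replicate 1. Reads of the near-identical CXCL1, CXCL2 and CXCL3 could be split among them, so their separate values are uncertain. CXCL12 was 4.78-fold lower (adjusted p = 0.0312) and was no longer called when any 1 library was left out.

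The interleukins followed. IL1B, a fever-inducing cytokine made as an inactive precursor, held 3949 and 2701 in KO2 and 155 and 158 in the labelled rescue libraries. This was 21.2-fold lower (log2 -4.37 ± 0.57, adjusted p = 0.000134), between a mean of 2.75 in WT and of 28750 in KO1. IL1A, which acts on the same receptor, was at 3522 and 2980 against 552 and 647, or 5.42-fold lower. IL6, an inducer of the acute phase, was at 3037 and 2193 against 792 and 842, or 3.20-fold lower (adjusted p = 8.25e-05). CSF3, the granulocyte growth factor, fell from 153 and 86.1 to 2.61 and 4.53. IL33 stood at 21.1 and 17.6 against 0.928 and 0, at least 6.44-fold lower, and was not called without KO2 replicate 1 or without KO2_Rescue replicate 2. IL24, outside this list and the largest fall of all genes with a symbol, went from 1829 and 1340 to 8.34 and 5.21 (log2 -7.68 ± 0.59, adjusted p = 6.04e-07). Its mean was 5.97 in WT and 1419 in KO1, which puts KO2 with KO1 and the labelled rescue libraries with WT for this gene.

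Acute-phase and complement genes fell as well. LCN2, a bacterial iron trap also used as a marker of tubular injury, went from 123 and 112 to 0.906 and 3.72 (log2 -5.30 ± 0.57, adjusted p = 1.87e-05). SAA2 stood at 4142 and 4250 against 459 and 536, 8.43-fold lower, and its near-copy SAA1 was 5.24-fold lower, with reads that could be split between them. C3, the central complement protein, was at 9245 and 9366 against 44554 and 41317 in KO2 (4.61-fold lower, adjusted p = 4.42e-08). PTGS2, the inducible cyclooxygenase, differed between the KO2 duplicates themselves (53.2 and 2.76) and was 0 in both labelled rescue libraries; it was no longer called without KO2 replicate 1 or either labelled rescue replicate. Of the 15 not called, IL32 went the other way, at 6111 and 5876 in KO2 and 8852 and 8793 in KO2_Rescue (log2 0.56, adjusted p = 0.000557), short of the fold threshold.

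**Figure D3:**
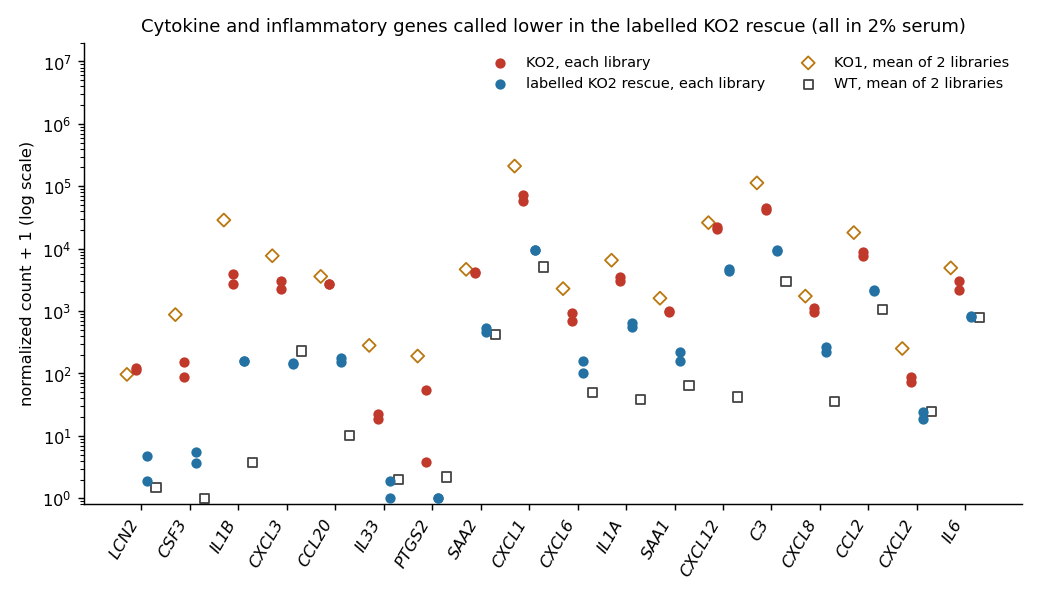
Normalized counts plus 1 (log axis) of the 18 inflammatory genes called lower, with a point per KO2 and KO2_Rescue library and open symbols for the WT and KO1 means. CXCL3, CCL20, IL1B and CXCL1 show no overlap between the KO2 and KO2_Rescue duplicates, and CCL20 and IL1B remain above WT in KO2_Rescue.

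Of 14 NF-kappaB subunits and feedback genes tested, 2 fell and none rose (2.52% and 1.65% over all genes tested). NFKBIA, the IκBα inhibitor that NF-kappaB itself induces, stood at 7063 and 6305 against 2742 and 2856 (log2 -1.25 ± 0.08, adjusted p = 7.59e-08). TRAF1, a receptor adaptor, was lower by 1.04 on the log2 scale (adjusted p = 0.0427) and was not called when any 1 library was left out. The feedback genes NFKBIZ (log2 -0.88) and TNFAIP3 (log2 -0.82) did not reach the fold threshold, and the subunits RELA, REL and NFKB1 were not called. CEBPB, another activator of acute-phase genes, went from 1440 and 1313 to 508 and 544 (log2 -1.39).

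A wider list of secreted factors held 37 tested genes, of which 18 were lower and 3 higher (2.52% and 1.65% over all genes tested), with a median log2 difference of -1.89. The study chose that list on KO1, WT and Rescue1 libraries, which limits it as evidence, and it shares members with the cytokine list. The 3 that rose were CHRDL1, FGF1 and TGFB2, of which FGF1 was not called without KO2 replicate 1 or KO2_Rescue replicate 1. CHRDL1, a secreted antagonist of bone morphogenetic proteins, went from 96.6 and 105 to 1010 and 1029 (10.1-fold; log2 3.33, adjusted p = 7.39e-07), against a mean of 22.1 in WT.

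Several of the largest falls ended at or near 0. ABCA12, a lipid transporter of the skin barrier, held 117 and 353 in KO2 and 0 in both labelled rescue libraries, at least 78.4-fold lower. ZNF469 held 138 and 184 against 0 and 0, at least 53.7-fold lower, and ROPN1B, a sperm fibrous-sheath protein, 160 and 142 against 2.50 and 2.17, at least 50.2-fold lower. DAZL, a germ-cell RNA-binding protein, stood at 67.6 and 79.7 against 0 and 1.77, at least 24.5-fold lower. These 4 genes were thus present in KO2 and at the floor in both labelled rescue libraries. CH25H, which makes the oxysterol 25-hydroxycholesterol, went from 660 and 521 to 7.01 and 2.07 (log2 -6.89, adjusted p = 1.30e-05), and was at 0 in WT and at a mean of 2234 in KO1. DCLK3, a kinase, went from 193 and 202 to 2.07 and 3.20 (log2 -5.79, adjusted p = 2.50e-06). SHISA2, which retains FGF and WNT receptors in the endoplasmic reticulum, went from 1381 and 1435 to 66.2 and 42.1 (26-fold; log2 -4.71 ± 0.21, adjusted p = 1.68e-09). H4C14, a histone H4 gene of a multigene family, was at 145 and 125 against 0 and 6.52 (log2 -5.63, adjusted p = 0.00338), and was lost without KO2_Rescue replicate 1. FER1L6 (294 and 228 against 5.25 and 5.42) and DAB1, an adaptor of reelin signaling (317 and 308 against 3.82 and 17.1), also fell. OSGIN2 was called with labelled rescue values of 0 and 205, and SERPINB7 with 0 and 14.3 against 741 and 619. Both calls were lost without either KO2 replicate and without KO2_Rescue replicate 1.

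WNT ligands signal through Frizzled receptors. Of 29 WNT pathway genes tested, 3 fell and none rose (2.52% and 1.65% over all genes tested), and the list median was 0.138, with 15 of 29 positive. WNT5A, which acts mainly without β-catenin and is tied to migration, went from 11621 and 10990 to 1306 and 1503. It was 8.05-fold lower (log2 -3.01 ± 0.27, adjusted p = 3.18e-06), between means of 683 in WT and 21949 in KO1. WNT2 went from 3191 and 2595 to 399 and 350 (log2 -2.94, adjusted p = 0.000106) and was 0 in WT. The receptor FZD1 was lower by 1.05 on the log2 scale, a call that was lost under same-total scaling and without KO2 replicate 1.

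Of 31 mesenchymal genes tested, 2 were higher and 2 lower (1.65% and 2.52% over all genes tested). The median was 0.0319, and TAGLN, described below, was among those higher. DCN, the collagen-binding proteoglycan decorin, stood at 98373 and 94978 against 37572 and 35187 (log2 -1.41, adjusted p = 8.23e-05), still far above its WT mean of 383. PRRX1, a mesenchymal transcription factor, was at 34.8 and 28.4 against 0 and 0.662, at least 10.5-fold lower. Other mesenchymal genes were not called. FN1 (log2 -0.42, adjusted p = 0.592), MMP2 (log2 -0.01, adjusted p = 1), ZEB2 (log2 -0.55, adjusted p = 0.00883) and VIM (log2 0.47, adjusted p = 0.000528) remained under the thresholds. POU2F2, which encodes OCT2, was at 2065.5 and 1617 against 655 and 764 and was not called either (log2 -1.37, limma adjusted p = 0.134). FN1 was at 1958270 and 1958180 against 1445360 and 1474320. The spread in the fit came from all 22 libraries, and the WT duplicates differed widely for POU2F2 (39.3 and 237) and FN1 (697564 and 180968). For these genes the lack of a call does not show that KO2 and KO2_Rescue were alike.

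Matrix receptors and growth-factor genes changed in both directions. CD44, the hyaluronan receptor, went from 38565 and 32523 to 11591 and 10677 (log2 -1.67, adjusted p = 2.17e-09). The basement membrane protein NID2 went from 479 and 390 to 35.4 and 33.6 (log2 -3.61, adjusted p = 0.00283), and ITGA1, a collagen-binding integrin, from 2350 and 1979 to 434 and 388 (log2 -2.39, adjusted p = 1.73e-05). Each lay lower in both labelled rescue libraries. Of 28 laminins and integrins tested, 3 were lower and 1 higher (2.52% and 1.65% over all genes tested). The others were LAMB3 (log2 -1.23, lost without KO2 replicate 1) and ITGB1, the common β1 chain, at 2640 and 2821 against 4573 and 6553 (log2 1.0, lost without KO2 replicate 1 or KO2_Rescue replicate 2). MET, the receptor of hepatocyte growth factor, went from 19153 and 18045 to 6943 and 6473 (log2 -1.47, adjusted p = 1.04e-09). IGFBP3, which binds insulin-like growth factors, went from 11120 and 9410 to 1736 and 1907 (log2 -2.49, adjusted p = 8.06e-08). KDR, the VEGF receptor, fell from 145 and 126 to 7.0 and 8.11 (log2 -4.0, adjusted p = 0.00439). Of 39 growth factors and receptor tyrosine kinases tested, 5 were lower and 2 higher (2.52% and 1.65% over all genes tested). PDGFB, a ligand for pericytes and fibroblasts, was among those higher, at 403 and 483 in KO2 and 1868 and 1737 in KO2_Rescue (log2 2.03). DUSP6, a phosphatase that ERK signaling induces, was at 257 and 419 against 49.4 and 116 (log2 -2.10, lost without KO2 replicate 2 or KO2_Rescue replicate 1), and IGF2, a fetal growth factor, at 2809 and 2597 against 973 and 1097 (log2 -1.39, adjusted p = 0.0401), with a WT mean of 0.4. IGF2 was not called when any 1 library was left out. PHLDA1, an early growth-factor response gene, had the smallest adjusted p in this contrast among the genes described here, going from 10593 and 9409 to 2224 and 2159 (log2 -2.19 ± 0.06, adjusted p = 5.99e-11).

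Genes of the contractile cytoskeleton and targets of YAP, the coactivator of the Hippo pathway, provided some of the largest rises. Of 19 tested, 4 were higher and 1 lower (1.65% and 2.52% over all genes tested), with a median of 0.646. ANKRD1, a standard YAP target, stood at 124 and 147 in KO2 and 2151 and 1961 in KO2_Rescue. It was 15.1-fold higher (log2 3.91 ± 0.21, adjusted p = 1.50e-08), near the WT mean of 1367. MYL9, a regulatory light chain of smooth-muscle myosin, was nearly silent in KO2 at 3.27 and 8.66 and reached 291 and 298 (log2 5.52 ± 0.78, adjusted p = 0.00024). Its WT mean was 27.9 and its means in Rescue1 and Rescue2 were 2.45 and 2.23, so that this level was found in neither WT nor the lines with high SETD2. CALD1, which binds actin, went from 11846 and 12893 to 31349 and 30798 (log2 1.33, adjusted p = 0.000213). TAGLN, another actin-binding protein, went from 10076 and 10103 to 38765 and 40306 (log2 1.97, adjusted p = 0.0113), a call lost when any 1 library was left out. TPM2, a tropomyosin, was the gene that fell, by 1.18 on the log2 scale.

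MYC, the growth-promoting transcription factor, held 92.6 and 92.1 in KO2 and 868 and 839 in KO2_Rescue. The rise was 9.24-fold (log2 3.19 ± 0.21, adjusted p = 1.15e-07), towards a WT mean of 1104, whereas KO1 had a mean of 185. GSTM3, a glutathione transferase, went from 16.8 and 38.2 to 457 and 554 (18.4-fold), and MAP2, a microtubule protein of neurons, from 64.3 and 80.0 to 857 and 671 (10.6-fold). ENG, the TGF-β coreceptor endoglin, went from 62.5 and 69.3 to 480 and 494 (log2 2.87). The ligand TGFB2 rose from 777 and 847 to 2546 and 2355 (log2 1.59), and THBS1, an activator of latent TGF-β, by 1.07. The TGF-β list as a whole had 2 higher and 2 lower of 28 tested (1.65% and 2.52% over all genes tested), with a median of 0.0436. The lower ones were TSC22D1, a TGF-β-induced transcription regulator (7688 and 7384 against 3098 and 3120, log2 -1.28, adjusted p = 8.12e-06), and the bone morphogenetic protein antagonist NOG (603 and 538 against 277 and 270.5, log2 -1.05), which was lost under same-total scaling and without KO2 replicate 1 or either labelled rescue replicate. The collagen genes COL6A1 (3834 and 3663 against 8844 and 9831, log2 1.31) and COL13A1 rose, the latter not being called without replicate 2 of either group, and none of the 27 collagens tested fell. TRO, trophinin, went from 16.6 and 18.0 to 185 and 144 (log2 3.17, adjusted p = 1.92e-07), still below means of 507 in WT and 552 in KO1. CDH8, a neuronal cadherin, went from 37.2 and 30.6 to 218 and 244 (log2 2.74), ZSCAN31, a zinc finger gene, from 46.4 and 51.2 to 351 and 286 (log2 2.68), and PNMA6A from 15.4 and 16.9 to 110 and 141 (log2 2.87). The serotonin receptor gene HTR1D went from 45.7 and 49.3 to 369 and 340 (log2 2.87, adjusted p = 0.0227), a call lost when any 1 library was left out. In WT, ZSCAN31 was at 37.5 and 65.0 and ENG at 7.03 and 3.96, so these rises led away from WT. HTR1D was at 86.2 and 9.62 in WT, on either side of KO2. GSTM3, MAP2, CDH8, PNMA6A, TGFB2, COL6A1, COL13A1 and HTR1D also ended above both WT libraries, whereas MYC, TRO and THBS1 stayed below both. PFDN6, a prefoldin subunit encoded in the MHC region, went from 0 and 0 to 115 and 102, at least 36.2-fold. This region has alternate assemblies with their own gene identifiers, among which reads could be split, and the call was lost when any 1 library was left out.

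**Figure D4:**
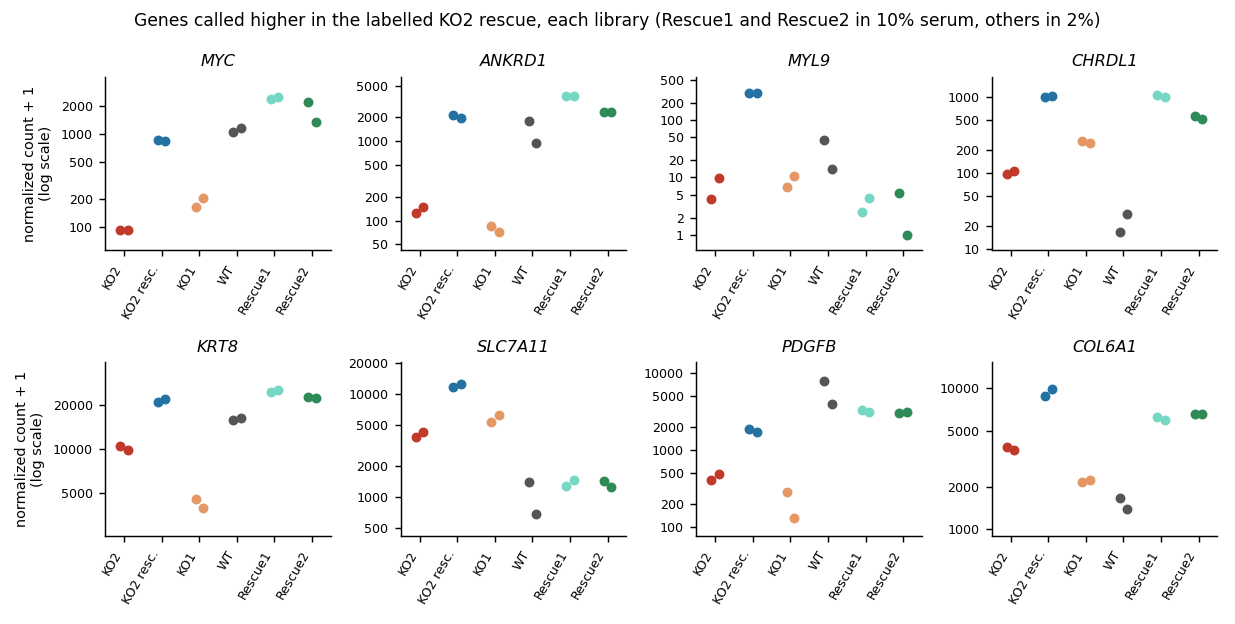
Normalized counts plus 1 (log axes) of 8 genes called higher in the labelled rescue libraries, with a point per library of KO2, KO2_Rescue, KO1, WT, Rescue1 and Rescue2. MYC and ANKRD1 lie near WT in KO2_Rescue, whereas MYL9 and CHRDL1 lie above it.

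Of 25 epithelial genes tested, 6 were higher and 2 lower, against 1.65% and 2.52% of all genes tested. The median was 0.14, with 13 positive and 11 negative, and leaving out 1 library gave 1 to 5 higher. KRT8, a keratin of simple epithelia, went from 10534 and 9784 to 20896 and 21728 (log2 1.07 ± 0.07, adjusted p = 6.82e-08). The desmosomal genes PKP2 (168 and 185 against 422 and 333, log2 1.08) and DSP (491 and 648 against 1174 and 1112, log2 1.02) rose. LSR and AP1M2, and the tight-junction gene CLDN4 (log2 1.20), were also higher, although CLDN4 was not called when any 1 library was left out, nor PKP2, DSP, LSR and AP1M2 without KO2_Rescue replicate 1. Without KO2 replicate 1, DSP, LSR and AP1M2 were not called. EPCAM, an epithelial adhesion molecule, was at 901 and 838 against 1247 and 1306 (log2 0.55, adjusted p = 0.00567) and was not called. CDH16, the kidney-specific cadherin, fell from 211 and 89.4 to 0 and 15.3, and so did CLDN2, the leaky-tubule claudin, from 16.2 and 30.7 to 9.5 and 8.03, a call lost without replicate 2 of either group. CDH1, the defining cadherin of epithelium, was close to 0 throughout, at 0 and 0.776 against 1.45 and 3.23, with 25.5 and 47.5 in WT. MUC1 was likewise at 11.5 and 0 against 2.19 and 3.8, with a WT mean of 544. The summed level of the 34 epithelial genes was 34643 to 37206 in KO2, 54130 to 55431 in KO2_Rescue and 52008 to 54523 in WT. KRT8 and another keratin, KRT19 (8944 and 8829 against 17405 and 17655, log2 0.98, not called), account for that difference, whereas ELF3, an epithelial transcription factor, was at 2914 and 2737 against 1597 and 1633 (log2 -0.81) and the protease inhibitor SPINT1 at 4062 and 3567 against 2982 and 3005 (log2 -0.35), neither of them called.

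Of 32 cell-cycle genes tested, 4 were higher and none lower, against 1.65% and 2.52% of all genes tested. The median was 0.874, with 28 of 32 positive. CENPE, a kinetochore motor, went from 52.0 and 85.6 to 219 and 226 (log2 1.72), CCNB1, the mitotic cyclin, from 495 and 415 to 961 and 990 (log2 1.10), and CCNE2, a cyclin of S-phase entry, from 7.59 and 8.25 to 37.9 and 27.6 (log2 1.9). CDC6, which licenses replication origins, was the fourth (log2 1.02). CDC6 was lost without either KO2 replicate and without KO2_Rescue replicate 1, and CCNB1 without KO2 replicate 2. MKI67, the usual proliferation marker, was not called, since the KO2 duplicates were at 264 and 1105 and overlapped with 1043 and 714. All 4 called genes were still below their WT means, for example 2873 for CCNB1. Of 22 sterol synthesis and uptake genes, EBP and MVK rose, with a median of 0.568, and none fell, but leaving out 1 library gave 0 to 2 higher.

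Stress and nutrient lists held few called genes. SLC7A11, the cystine importer, went from 3854 and 4321 to 11851 and 12524 (log2 1.58), and its partner chain SLC3A2 from 2779 and 3292 to 7099 and 6442 (log2 1.16). GDF15, a stress-induced hormone, went from 10408 and 7948 to 2025 and 2050 (log2 -2.16, adjusted p = 5.23e-08), and the death receptor FAS was lower by 1.36. CA12, a carbonic anhydrase, went from 814 and 569 to 60.8 and 48.2 (log2 -3.63, adjusted p = 1.84e-06), while SLC2A1, the basal glucose transporter, was higher by 1.02, a call lost without KO2 replicate 2 or KO2_Rescue replicate 2. AKR1C2, a reductase of the NRF2 response, went from 54.0 and 34.9 to 7.24 and 5.72 (log2 -2.58, adjusted p = 0.0014). HES4, a Notch target, went from 78.0 and 95.0 to 236 and 269.8 (log2 1.54, adjusted p = 0.000351). Of 28 p53 targets and cell-cycle inhibitors, 2 fell and none rose, and of 18 hypoxia and glycolysis genes 1 rose and 1 fell. The hypoxia and glycolysis list nevertheless had a median of -0.587, with 15 of 18 differences negative and 3 positive. The p53 list had a median of -0.236, with 18 negative and 10 positive. Over all genes tested, 1.65% rose and 2.52% fell.

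Other lists showed few or no calls, against 1.65% called higher and 2.52% called lower over all genes tested. None was called among 24 genes that write, erase or read H3K36 methylation, 28 HOX genes, 12 MHC class I presentation genes and 13 mitochondrially encoded transcripts. In the HOX genes 24 of 28 differences were negative, with a median of -0.255, and 4 were positive. Of 44 interferon-stimulated genes 1 was higher and 2 were lower, namely EPSTI1, at 464 and 407 against 132 and 113 (log2 -1.82, adjusted p = 0.000131), and PLSCR1 (log2 -1.02, lost when any 1 library was left out), with GBP1, a guanylate-binding protein, the higher one at 79.8 and 46.9 against 147 and 191 (log2 1.44, lost without replicate 2 of either group). Of 226 zinc finger genes on chromosome 19, 3 were higher and 1 was lower, with a median of -0.0372. ZNF93, a repressor of retroelements, was at 156 and 156 against 349 and 295 (log2 1.04, lost without KO2_Rescue replicate 1). Of 34 clustered protocadherins 2 were higher, PCDHGB1 (20.5 and 6.99 against 121 and 71.6) and PCDHB2 (188 and 143 against 380.0 and 404), whose exons and sequences are shared within the clusters, so that reads could be split, and leaving out 1 library gave 0 or 1 called. Of 17 proximal tubule genes tested, 1 was higher and none lower. The higher one was LHX1 (6.17 and 1.15 against 20.8 and 23.2), lost without KO2 replicate 2 or either labelled rescue replicate. HNF4A, SLC22A6, SLC22A8 and PCK1, which define the mature proximal tubule, were at 0 in both groups and in WT. The renal factor PAX8 was at 5056 and 5096 against 3401 and 3142, and PAX2 at 744 and 779 against 710 and 854. The brush-border enzyme GGT1 was at 1091 and 945 against 761 and 770. The 17 differences were 8 positive and 9 negative, with a median of -0.027. Summed levels of the 29 listed genes were 9302 to 9342 in KO2, 7127 to 7655 in KO2_Rescue and 7058 to 9395 in WT.

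For markers of other cell types, summed levels were 48.6 to 81.3 in KO2 and 49.4 to 74.0 in KO2_Rescue for endothelial, 24.1 to 43.4 and 15.8 to 20.05 for leukocyte, 469 to 599 and 594 to 699 for podocyte, and 69.7 to 91.3 and 76.6 to 77 for distal nephron genes. None of the genes tested in these lists was called, although the leukocyte sums of the groups did not overlap and lay lower in the labelled rescue libraries. List medians were -0.415 for leukocyte, -0.727 for distal nephron, -0.0979 for endothelial and 0.0833 for podocyte genes. Of the 4 podocyte genes tested, 2 differences were positive and 2 negative. PODXL was at 55.1 and 118 against 212 and 201 and SYNPO at 135 and 130 against 254 and 199. PLA2R1 was at 273 and 335 against 124 and 288 and PTPRO at 6.24 and 12.1 against 2.44 and 11.1. The part of these cell types in the results above was not tested. Of the 10 leukocyte genes 5 were at 0 in both KO2 libraries and 6 in both labelled rescue libraries, CD3E and TYROBP among them, and of the 10 endothelial genes 4 were at 0 in either group, EMCN among them. In such bulk libraries fewer cells expressing a gene and less RNA per cell cannot be told apart.

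**Figure D5:**
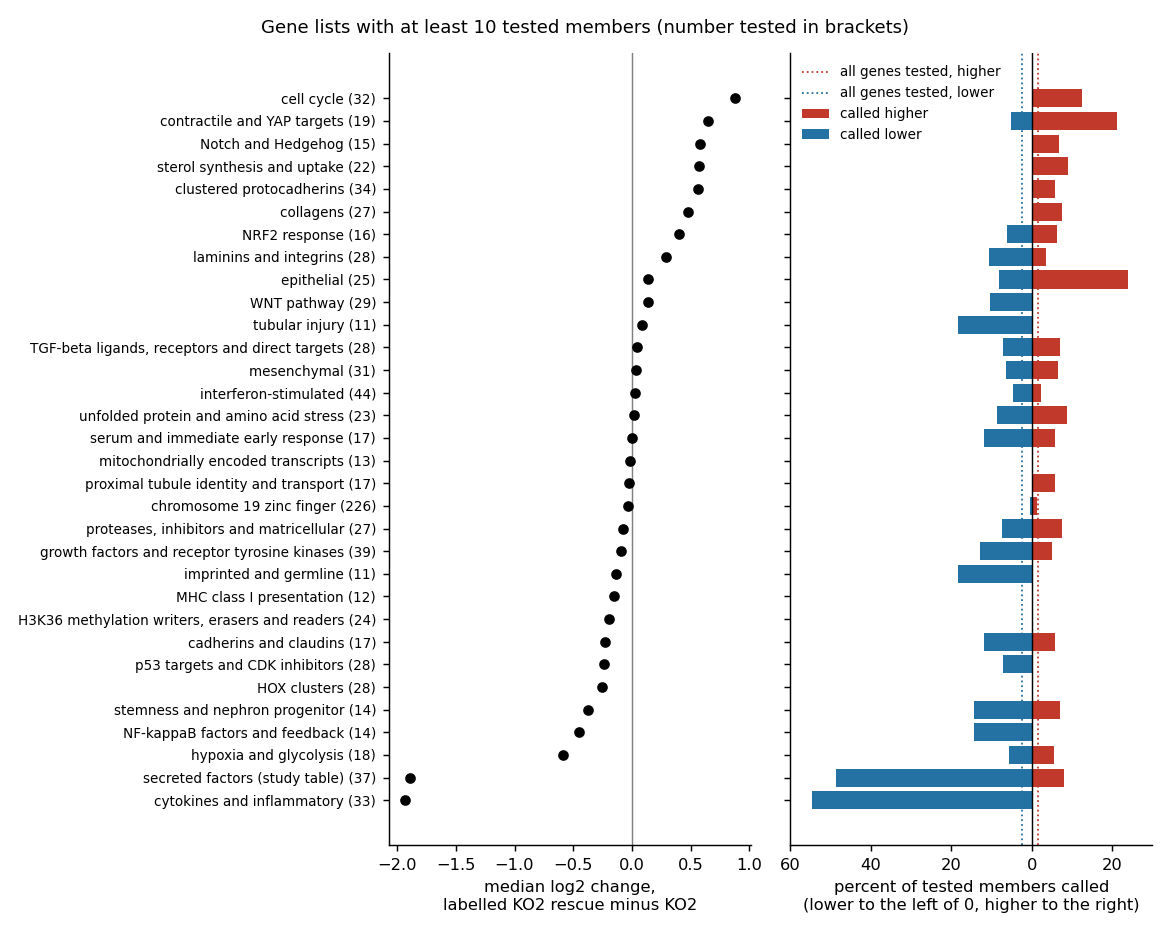
Median log2 difference (left) and percent of tested genes called lower or higher in the labelled rescue libraries (right) for each list with at least 10 tested genes; dotted lines give the percent over all genes tested. The cytokine list (18 of 33 lower) and the secreted factors (18 of 37 lower) stand apart from lists with no calls, such as the HOX genes.

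The same genes were then read in contrasts that share no library with this one. KO1 against WT called 3653 of the 14585 genes (25%), of which 411 were among the 608 called here (67.6% of these and 11.3% of those in KO1 against WT). Of the 411, 360 (87.6%) went in opposite directions. They comprised 236 genes higher in KO1 and lower in the labelled rescue libraries, and 124 lower in KO1 and higher in them. In Rescue1 and Rescue2 against KO1, which also differ in serum, 3904 genes were called (26.8%), and 442 of these were called here (72.7% and 11.3%), 31 of them (7.01%) in the opposite direction. TGF-β-treated against untreated WT called 1143 (7.84%), shared 153 with this contrast (25.2% and 13.4%), and 66 (43.1%) were opposite. For the cytokine list, all 18 genes that fell here were called higher in KO1 against WT, where 12% of all genes were higher and 13.1% lower, and in the rescue lines against KO1, where 13.7% of all genes were higher and 13.1% lower, 23 of the 33 were lower and 1 was higher. The contrasts with KO1 and with WT share those libraries with each other and are not independent of each other.

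Directly against the other groups, the labelled rescue libraries differed from KO2 least, with 608 genes called (4.17%). They differed in 1356 genes from Rescue2 (9.3%), 1379 from Rescue1 (9.45%), 1854 from WT (12.7%), 1874 from WT_TGFb (12.8%) and 2210 from KO1 (15.2%). Along the genome, median differences of 263 runs of 50 neighboring tested genes lay between -0.263 and 0.27, and the medians of 23 chromosomes lay between -0.073 and 0.101. These medians do not show where called genes lie together, as in the run on chromosome 4 that held CXCL8, CXCL6, CXCL1, CXCL3 and CXCL2 among 6 genes called lower. Of the genes called, 34 had no symbol, among which ENSG00000227317 (0 and 0 against 355 and 364) and ENSG00000285901 (0 and 0 against 140 and 158) rose most, the first of these not being called when any 1 library was left out.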

How the data were processed

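RNA was sequenced from 22 RPTEC libraries with a stranded mRNA kit. Per the submitters' processing notes, the authors used Salmon 1.9.0, hg38 and DESeq2 1.26.0, and deposited log2 variance-stabilized values for 36859 genes. The lowest deposited log2 value is shared by all libraries, and the transformation was inverted to normalized counts. Whole reads could not be recovered (27.7% to 50.8% of low values lay within 0.05 of a multiple), so depth is known only as scaled totals, 11674491 to 16758645 over all libraries, and no count model was run. limma 3.58.1 (R 4.3.3) was fitted to log2(normalized count + 1) over all 22 libraries with 1 mean per group, for the 14585 genes reaching 10 normalized counts in 2 or more libraries, with Benjamini-Hochberg adjustment over all of them. Folds in the text are ratios of mean normalized counts; log2 values come from the fit and understate changes of low genes. A fold against a group with both libraries at or under 3 is a lower bound. Symbols are from GENCODE 44. Named genes were SETD2, the 15 largest rises and falls without overlap and with a mean of at least 100 in the higher group, up to 6 called genes per list and its defining members; others were chosen after their values were seen. The members and lists were chosen with earlier results of these data known. In simulated data, 200 genes were changed among 14585, all with a mean of at least 100 normalized counts. Of these, 76% were recovered at a log2 change of 1.5, 86% at 2 and 93% at 3. Recovery of genes at lower levels was not simulated.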

Additional observations from a re-analysis of the deposited data

How the results depend on the processing

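Alternatives were pseudocounts of 0.5 and 5, other filters on low values, quantile and same-total scaling, a GC and length term, only the 4 libraries, the deposited log2 scale, a replicate block, and each of the 4 libraries left out, the last leaving 1 library whose spread is assumed like that of other groups. No named call reversed, and 64 of 115 named calls held in every one of the 13 alternatives other than the deposited scale that gave a value, with 70 held whichever library was left out. The single settings with most losses among the named calls were the deposited scale (96), only the 4 libraries (36) and each left-out library (28 to 33). On the deposited log2 values, where low counts are compressed, 7 genes were higher and 28 lower, and calls shared with KO1 against WT, Rescue against KO1 and WT_TGFb against WT were 30, 29 and 2. With only the 4 libraries, 164 were higher and 268 lower, and SETD2 had an adjusted p of 0.0532. Leaving out 1 library gave 148 to 213 higher, 240 to 311 lower, a SETD2 log2 difference of -0.358 to -0.332, and 290 to 341, 314 to 376 and 110 to 121 shared calls. With no filter on low values the median of the secreted factors was -0.459. The labels share replicate numbers, but deviations of same-numbered libraries of KO2 and KO2_Rescue had r = 0.013 over 8276 genes. No common deviation was thus seen, although whether same-numbered libraries shared a culture or preparation cannot be told from this. With the replicate block, 228 genes were higher, 355 lower, and SETD2 differed by -0.345 (adjusted p = 0.0056). Depth is known only as scaled totals, so differences among genes near the floor of 3 normalized counts were not resolved.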
